A study of Mus musculus with 2 samples.

Results

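Formative and primed epiblast genes were examined in mouse embryonic stem cells (mESCs) that carried either a control shRNA or an shRNA against the deubiquitinase USP21. The 7 genes were Fgf5, Otx2, Pou3f1, Zic2, Zic5, Sox3 and Foxd3, taken by their symbols from the 23889 gene symbols of the RNA sequencing. The rule that picks them uses their symbols and no measured value, although they were chosen with earlier results of these data known. Both libraries came from the E14 stem cell line, labelled as derived from the 19/Ola mouse, grown without feeders on gelatin in medium with 15% FBS and 1000 U/ml LIF, and transfected with shRNA for 3 days before harvest. The shCon library (genotype labelled Normal) and the shUSP21 library (labelled USP21 knockdown) are 1 sample each, so no difference given here has a replicate check and no p-value is given. Neither the USP21 shRNA sequence used nor the share of cells that took it up is given in the labels.

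mESCs kept in serum and LIF resemble the naive epiblast of the blastocyst before implantation. When the epiblast implants, it passes through a formative stage, in which the naive factors are turned down and genes such as Otx2, Fgf5 and Pou3f1 are turned on, and then reaches the primed stage, in which cells stand ready for gastrulation. Cultures in serum and LIF are mixed, and single cells can move toward or away from the formative stage while most stay naive.

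Expression was measured as FPKM, the sequenced fragments of a gene divided by its transcript length and by the mapped fragments of the library, which puts genes of different length on one scale. Otx2 and Zic2 were higher with the USP21 shRNA, at 1.99 and 1.72 times their FPKM in the control. Pou3f1 and Zic5 were 1.31 and 1.25 times the control, Sox3 was at 1.01 times, and Foxd3 was lower at 0.812 times. Fgf5, the gene most often used to mark this stage, was close to the detection limit in both libraries. Of the 7 genes, 6 reached an FPKM of 1 in shCon, in shUSP21 or in both, a minimum that 11927 of all symbols passed. Differences are given below as log2 ratios, log2((FPKM in shUSP21 + 0.1)/(FPKM in shCon + 0.1)), which understate the change of genes with low values. Among the 6 genes 5 had a log2 ratio above 0, as did 50.4% of all genes past the minimum. No member reached 2-fold in either direction, against 2.3% of all genes at least 2-fold higher and 2.03% at least 2-fold lower. At 1.5-fold, 2 members were higher (all genes, 7.77%) and 0 were lower (all genes, 6.46%). The median log2 ratio of the 6 members was 0.34, and that of all genes past the minimum was 0.0031.

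**Figure D1:**
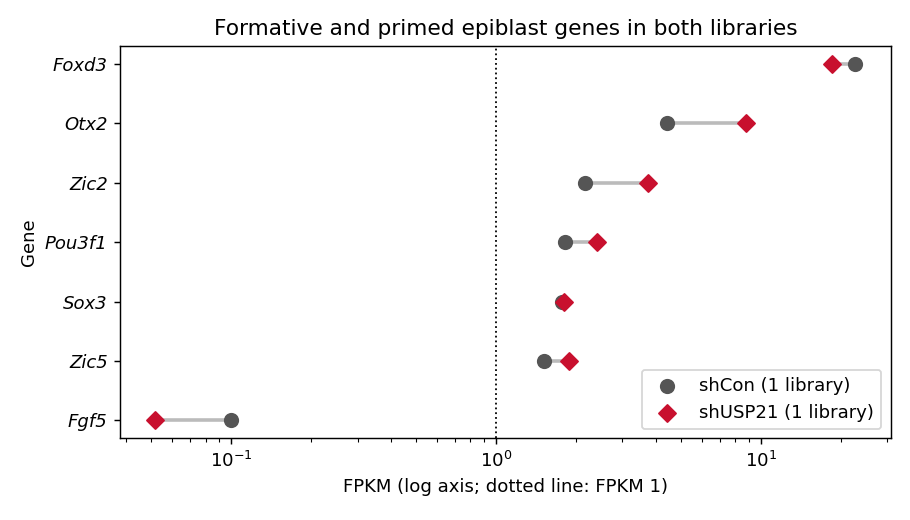
FPKM (log axis) of the 7 genes in the shCon library (circles) and the shUSP21 library (diamonds), 1 library each, with a dotted line at FPKM 1. Otx2 moves from 4.42 to 8.78 and Zic2 from 2.17 to 3.74, Sox3 lies at nearly the same place in both libraries, and Fgf5 lies at or under 0.0999 in both.

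Most members sat in the low part of the range, where log2 ratios scatter more. Among the 3147 genes with a control FPKM from 1 to 5, which is where Otx2, Zic2, Pou3f1, Sox3 and Zic5 lie, the median log2 ratio was 0.056, and the middle 80% of genes ran from -0.65 to 0.66. In that range 55.1% of genes had a log2 ratio above 0 and 12.7% were at least 1.5-fold higher. Otx2 and Zic2 lay above the upper end of this span and the other 3 lay within it. Of all genes past the minimum, 97.5% had a lower log2 ratio than Otx2 and 95.4% a lower one than Zic2. The corresponding shares were 84.3% for Pou3f1, 79.5% for Zic5, 52.0% for Sox3 and 18.4% for Foxd3. These are places among genes of the same pair of libraries and not tests against replicate error.

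**Figure D2:**
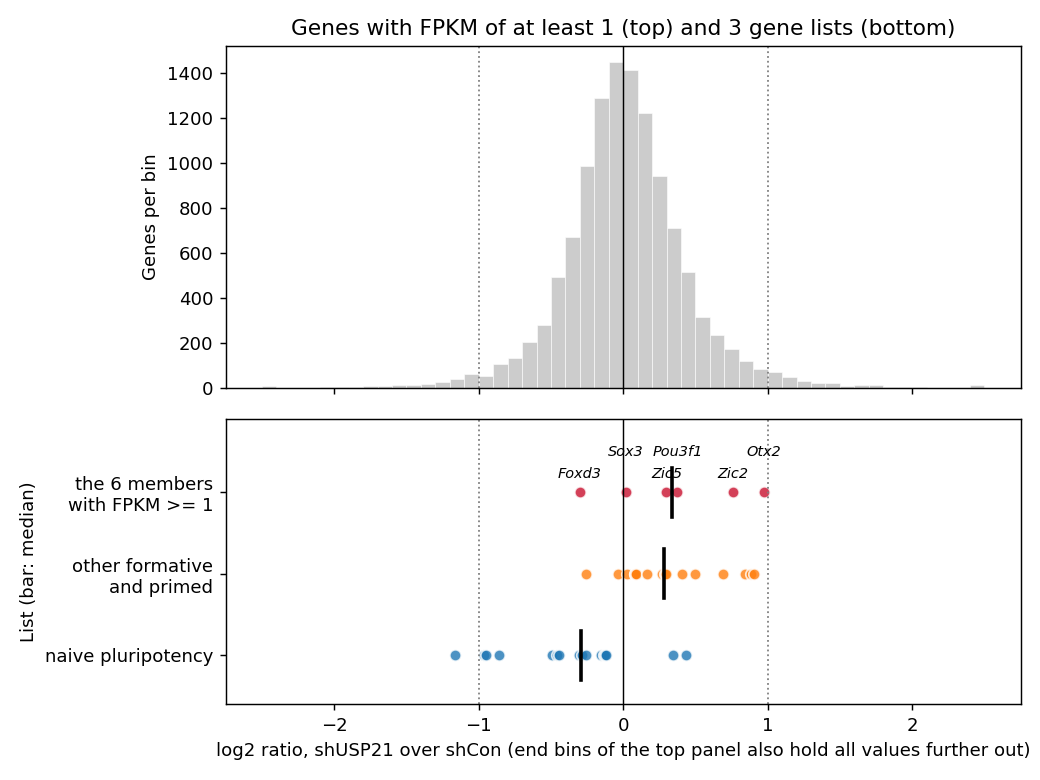
Top, number of genes per bin of log2 ratio (shUSP21 over shCon) for the 11927 genes with FPKM of at least 1. Bottom, the log2 ratio of each gene with FPKM of at least 1 among the naive pluripotency genes, the other formative and primed genes and the members, with a black bar at each median (-0.29, 0.28 and 0.34) and dotted lines at 2-fold, which no member and no other formative or primed gene passes.

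The DNA just upstream of a start site shows how a gene's promoter is built, and CpG dinucleotides are the sites where mammalian DNA is methylated, so the stretches before the starts of the members are printed with each CpG in capitals. RefSeq start windows (GRCm38.p6) were found for 4 of the 7 members, which were Foxd3, Fgf5, Otx2 and Zic5, and Otx2 had 4 annotated windows. The following runs read 5′ to 3′ on the strand of the gene, start 100 bases before the RefSeq start, and end at that start or at the first base that GENCODE annotates as exon, so the Zic5 run has 81 bases and the others have 100. For Otx2 the most upstream of the 4 RefSeq windows is shown, and since GENCODE has longer Otx2 transcripts that begin further upstream, this run lies within the GENCODE bounds of the gene, between exons. The runs are Foxd3 at chr4:99656199-99656298 on the plus strand with 11 CpGs, Fgf5 at chr5:98254084-98254183 on the plus strand with 11, Otx2 at chr14:48667645-48667744 on the minus strand with 5, and Zic5 at chr14:122465678-122465758 on the minus strand with 4.
Foxd3: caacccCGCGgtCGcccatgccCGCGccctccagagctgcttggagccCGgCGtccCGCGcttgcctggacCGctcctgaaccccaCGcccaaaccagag
Fgf5: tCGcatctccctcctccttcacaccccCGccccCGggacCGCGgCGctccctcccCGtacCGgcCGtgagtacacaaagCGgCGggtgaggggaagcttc
Otx2: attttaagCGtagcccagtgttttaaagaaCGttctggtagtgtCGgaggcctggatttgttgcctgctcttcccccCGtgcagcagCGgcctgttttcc
Zic5: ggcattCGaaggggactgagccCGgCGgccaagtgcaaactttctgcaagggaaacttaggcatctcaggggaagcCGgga
Over the full 250 bases before the start, Fgf5 had 24 CpGs, Foxd3 21 and Zic5 11, and the 4 Otx2 windows had 6, 8, 14 and 9. The median over 32851 windows of 27025 genes was 6. Corrected for base composition, the ratio of observed to expected CpGs was 0.854 for Foxd3, 0.767 for Fgf5, 0.458 for Zic5 and 0.529 to 1.03 for the Otx2 windows, against a median of 0.373 over all windows. By this ratio each of the 7 windows was above the median. Of the 4 members with a window, the 2 with the most CpGs were at opposite ends of the expression range, Fgf5 lowest and Foxd3 highest. CpGs before Pou3f1, Zic2 and Sox3 were not counted.

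The same 250 bases were searched on both strands for 7 short motifs, none of which contains another. They were the TATA box TATAAA, the GC box GGGCGG, the CCAAT box CCAAT, the E-box CACGTG, the OTX motif TAATCC, the octamer ATTTGCAT and the SOX motif CATTGTT. Foxd3 held CACGTG 217 bases before the start (6.02% of all windows hold this motif) and Fgf5 held GGGCGG on the reverse strand 74 bases before it (32.7%). Of the Otx2 windows, from the most upstream to the most downstream, the first held TATAAA at 192 bases (12.4%), the next CCAAT on the reverse strand at 70 bases (33.8%) and the next TAATCC on the reverse strand at 211 bases (6.25%), while the last held none of them. No motif of the list was found before Zic5, and ATTTGCAT (1.6%) and CATTGTT (3.29%) were found in none of the 7 windows. A match is a description of the letters and does not show that a factor binds.

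Otx2 encodes a homeodomain transcription factor that is among the first to act when cells leave the naive state. It was at an FPKM of 4.42 in shCon and 8.78 in shUSP21, a log2 ratio of 0.97. It lies on chromosome 14 from 48657677 to 48673819 on the minus strand (GRCm38, GENCODE M21), has 11 annotated transcripts, and the transcript with the longest coding sequence spans 6 exons and 2592 bases. From what 1 fragment adds to the FPKM of low genes, about 345 fragments lay behind the control value and about 557 behind the other, which gives a counting error of 0.099 on the log2 ratio. That error covers the counting of fragments only, rests on an estimated depth, and says nothing of how much cultures vary. None of the 31-base words of that transcript occurs, in the same reading direction, in a transcript of another annotated gene. Sharing with antisense transcripts and the other Otx2 transcripts were not searched. The annotation also places a gene of unproven status, Gm49154, on the same strand within the bounds of Otx2, and it is not among the symbols of the files. Its place among all symbols, ranked from the highest FPKM, was 8741 in shCon and 7012 in shUSP21.

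Zic2 and Zic5 encode zinc-finger factors of the ZIC family and lie side by side on chromosome 14 with their starts facing away from each other, 9758 bases apart. Zic2 (122475435 to 122479852, plus strand) was at an FPKM of 2.17 in shCon and 3.74 in shUSP21, a log2 ratio of 0.76 with a counting error of 0.15. Zic5 (122456795 to 122465677, minus strand) was at 1.52 in shCon and 1.89 in shUSP21, a log2 ratio of 0.30 with a counting error of 0.14. Both were higher in the shUSP21 library, and the FPKM of Zic2 was 142.9% of that of Zic5 in shCon and 197.7% in shUSP21. About 160 and 223 fragments lay behind the Zic2 values and about 218 and 220 behind those of Zic5. Of the 31-base words of Zic5, 10.8% occur in 1441 other genes, and its FPKM is less certain for that reason, since the sources used here do not give the rule by which shared fragments were assigned. For Zic2 this share was 0.373%, all of it with its paralogue Zic1.

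Pou3f1, also known as Oct6, encodes a POU-domain factor of the early epiblast and later of the nervous system. It was at an FPKM of 1.83 in shCon and 2.40 in shUSP21, a log2 ratio of 0.38 with a counting error of 0.14 on about 212 and 226 fragments. The gene has 1 exon of 3849 bases (chromosome 4, 124656807 to 124660655, plus strand), and an annotated antisense gene, Gm2164, which is not among the symbols of the files, overlaps it. Whether fragments were counted by strand is not given, so transcripts from the opposite strand cannot be told apart from Pou3f1. Sox3, a SOXB1 factor of the epiblast and neural plate, was at 1.78 in shCon and 1.81 in shUSP21, a log2 ratio of 0.020 with a counting error of 0.20 on about 111 and 91 fragments. It too has 1 exon (chromosome X, 60891366 to 60893430, minus strand, 2065 bases). Its difference between the libraries was smaller than its counting error, which would also cover a change of about that size in either direction.

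Foxd3 encodes a forkhead factor that is present in naive cells, is needed to keep pluripotent cells, and acts as they pass to the primed stage. It was the most abundant member, at an FPKM of 22.7 in shCon and 18.5 in shUSP21, and the only one of the 6 that was lower, with a log2 ratio of -0.30. The counting error was 0.057 on about 1592 and 1049 fragments. The gene has 1 exon of 2324 bases (chromosome 4, 99656299 to 99658622, plus strand). Of its 31-base words 5.54% occur in 5 other annotated genes, among them Foxd1, Foxd2 and Foxd4 and the small RNA gene Gm23366, which lies within it.

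Fgf5 encodes a secreted fibroblast growth factor that is switched on as the epiblast implants. It was at an FPKM of 0.0999 in shCon and 0.0517 in shUSP21, both far under 1. These values correspond to about 8 and 3 fragments over a transcript of 2501 bases in 3 exons (chromosome 5, 98254184 to 98277030, plus strand). The ratio of 0.517 has an exact 95% interval for counting error from 0.079 to 1.93, so neither a rise nor a fall of Fgf5 was detectable at this depth. Of its 31-base words 1.62% occur in other genes.

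Within a library, the levels put the members in a nearly constant order. In shCon the FPKM order was Foxd3, Otx2, Zic2, Pou3f1, Sox3, Zic5 and Fgf5, and in shUSP21 only Sox3 and Zic5 changed places. Foxd3 was 414% above Otx2 in shCon and 110% above it in shUSP21. Pou3f1 lay 2.67% above Sox3 in shCon, where the counting error of the quotient was 11.7%, and Zic5 lay 4.80% above Sox3 in shUSP21, with a counting error of 12.5%. These neighbouring pairs did not differ beyond the counting error. In shCon Sox3 lay 17.2% above Zic5, with a counting error of 11.7%, and how these pairs vary between cultures was not measured. The summed FPKM of Otx2, Pou3f1, Zic2, Zic5 and Sox3 was 11.7 in shCon and 18.6 in shUSP21, and Otx2 with Zic2 made up most of the difference. With Foxd3 and Fgf5 included the sums were 34.6 and 37.1.

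Ratios of 2 genes within a library are free of the scaling between libraries. For every 1000 FPKM units of Nanog, a naive factor, there were 9.46 of Otx2 in shCon and 34.1 in shUSP21, a 3.60-fold shift to which both genes contributed. Nanog is one of the lower naive genes in shUSP21, and against the 16 naive genes with an FPKM of at least 1 the shift of Otx2 ran from 1.47-fold (Fgf4) to 4.47-fold (Tcl1), with a median of 2.44-fold. Against Pou5f1, which is on in naive and primed cells alike, it shifted 2.29-fold, from 5.09 to 11.7 per 1000.

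The families of the members were examined next, since paralogues can stand in for one another and share sequence. In the OTX family, Otx2 was the only gene with an FPKM of at least 1, Crx being listed at 0 in both libraries. The same held for Pou3f1 among the 4 POU3F genes, whose other members were at or under 0.141, and for Foxd3 beside Foxd1, Foxd2 and Foxd4, which were at or under 0.155. Of the paralogues of Zic2 and Zic5, Zic1 was at or under 0.019 and Zic4 was listed at 0. Among the SOXB1 genes, Sox2, a core pluripotency factor, was at 241 and 218. Its log2 ratio of -0.14 has a sign that scaling both libraries to equal sums of FPKM turns. Sox1, an early neural factor, was at 6.08 and 8.30 (log2 ratio 0.44). Sox3 was the lowest of the 3, at 7.39 units per 1000 of Sox2 in shCon and 8.28 in shUSP21.

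**Figure D3:**
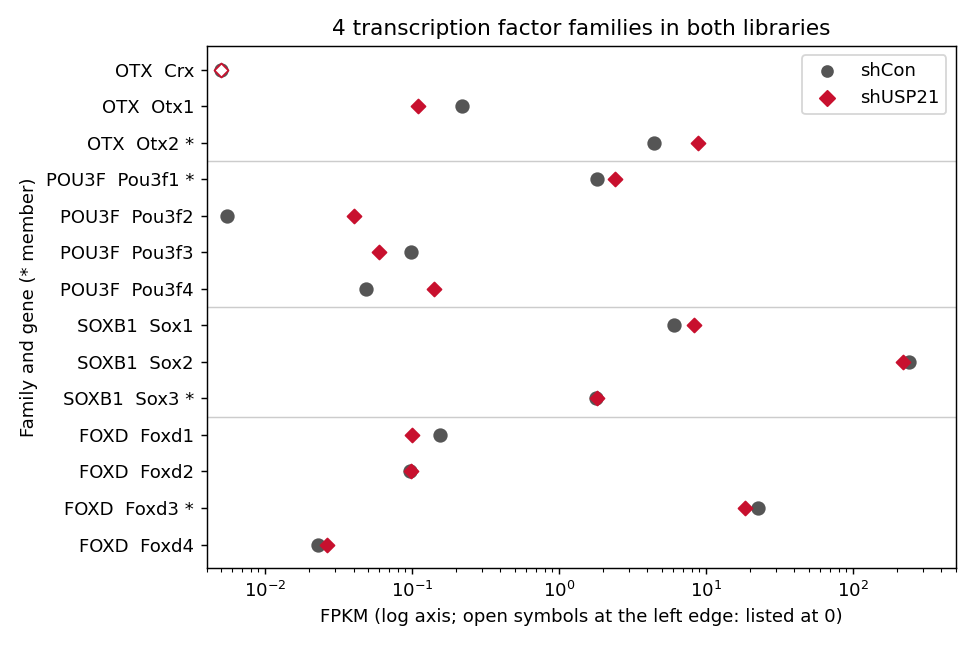
FPKM (log axis) of the genes of the OTX, POU3F, SOXB1 and FOXD families in shCon (circles) and shUSP21 (diamonds), 1 library each, with members starred and genes listed at 0 as open symbols at the left edge. Otx2, Pou3f1 and Foxd3 stand alone in their families, while Sox2 (241 and 218) lies far above Sox3.

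Of the 17 other FGF ligands examined beside Fgf5, 6 had an FPKM of at least 1 and 3 were listed at 0 in both libraries. Fgf4, the ligand that drives mESCs out of the naive state through ERK, was the most abundant, at 54.8 in shCon and 74.0 in shUSP21 (log2 ratio 0.43). Fgf17 was next, at 23.5 and 16.0 (log2 ratio -0.55), and Fgf3 was at 2.07 and 1.39 (log2 ratio -0.55). Fgf15 (1.56 and 1.90), Fgf1 (1.14 and 1.21) and Fgf18 (0.862 and 1.14) were slightly higher in shUSP21. Fgf5 stood at 1.82 units per 1000 of Fgf4 in shCon and 0.699 in shUSP21.

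The members were then set beside 22 other genes known for formative or primed cells. Of these 16 had an FPKM of at least 1, 14 with a log2 ratio above 0 and 2 below, with a median of 0.28, close to that of the members. At 1.5-fold 4 were higher and 0 lower, and 0 passed 2-fold. The 3 highest were Dnmt3a, a de novo DNA methyltransferase, at 19.4 and 36.5 (log2 ratio 0.91), Sox11, a SOXC factor, at 1.60 and 3.03 (0.89), and Tead2, a TEAD factor of the Hippo pathway, at 26.8 and 48.1 (0.84). The 3 lowest were Hes6, a bHLH factor, at 22.5 and 18.8 (-0.25), Dnmt3b, the other de novo methyltransferase, at 24.5 and 23.9 (-0.037, a sign that scaling both libraries to equal sums of FPKM turns), and Etv5, an ETS factor downstream of FGF signalling, at 137 and 139 (0.023). Otx2 had a larger log2 ratio than each of these 16 genes, and Zic2 a larger one than all but Dnmt3a, Sox11 and Tead2.

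Of 17 naive pluripotency genes 16 had an FPKM of at least 1, with 14 below 0 and 2 above and a median log2 ratio of -0.29. Scaled to equal sums (TPM), 10 were below 0 and 6 above, with a median of -0.12, while all genes shifted to a median of 0.18. Tcl1, an AKT co-activator, was the lowest, at 66.7 and 29.7 (log2 ratio -1.17), followed by Tfcp2l1 at 59.0 and 30.2 (-0.97) and Prdm14, a repressor of formative genes, at 12.6 and 6.46 (-0.95). The highest were Fgf4 (above), the homeobox gene Gbx2 at 28.2 and 35.8 (0.34), and Tbx3, a T-box factor, at 70.6 and 64.9 (-0.12, a sign that TPM turns). Foxd3, at -0.30, lay next to the median of this list, and the other 5 members with an FPKM of at least 1 lay above it. The 8 core pluripotency genes were divided evenly as deposited, 4 higher and 4 lower, with a median of -0.031. This split depends on the scaling, since Sox2 (-0.14) and Lin28a (-0.13) lie closer to 0 than the shift of 0.18 under TPM. Pou5f1 was the most abundant of them at 868 and 752, as is known for mESCs.

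Markers of other cell types that a mESC culture could hold were read in the same way, since several members are also active in neural cells or neural crest. Of 10 neural progenitor genes 3 had an FPKM of at least 1, 2 higher and 1 lower, and their summed FPKM was 47.2 in shCon and 32.0 in shUSP21, mostly from Tubb3 (38.5 and 20.4). Neurog2 and Dcx were listed at 0 in shCon and were at or under 0.013 in shUSP21. Of 8 neural crest genes 2 had an FPKM of at least 1, 1 higher and 1 lower, and the summed FPKM was 21.8 and 15.5, mostly from Ngfr (18.3 and 11.8). Primitive streak genes (3 of 8, 1 higher and 2 lower, summed FPKM 4.61 and 4.21, with Foxa2 the most abundant at 1.59 and 1.35) and primitive endoderm genes (8 of 8, 4 higher and 4 lower, summed FPKM 87.2 and 82.0, with Lama1 the most abundant at 32.0 and 33.3) had summed levels that were close in the 2 libraries, although single genes of both lists differed more. Trophectoderm genes were 4 of 7 past the minimum and 4 higher, with summed FPKM of 11.7 and 16.1 and Tfap2c the most abundant (8.83 and 11.4). Of these, Gata3 (0.547 and 1.36) and Hand1 (0.403 and 1.25) passed the minimum in shUSP21 alone, so they could only count as higher. Mixl1 of the primitive streak list (1.06 and 0.613) passed it in shCon alone, so it could only count as lower. Fibroblast genes were 2 of 8 and both lower, with summed FPKM of 19.9 and 7.19, mostly from Thy1 (17.3 and 5.29), and Lum was listed at 0 in both libraries. In a bulk library fewer cells of a type and less RNA per cell cannot be told apart, and the part of these cell types in the values of the members was not tested.

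The genes on either side of the members lay on both sides of a log2 ratio of 0. Beside Otx2, Tmem260, a membrane protein gene 133 kilobases away, was at 0.663 in shCon and 1.55 in shUSP21 (log2 ratio 1.12), while Exoc5, an exocyst subunit gene 330 kilobases away on the other side, was at 12.4 and 10.7 (-0.22). The antisense Otx2os1, which overlaps Otx2, was listed at 0 in both libraries. Beside Zic2, Pcca, which encodes a mitochondrial carboxylase subunit and lies 54.5 kilobases away, was at 6.41 and 5.07 (-0.33). Pou3f1 lies between Rragc (17.5 and 20.3, log2 ratio 0.21) and Fhl3 (7.83 and 7.35, -0.090), and Cdr1, beside Sox3, was listed at 0. The neighbours of Foxd3, Atg4c (4.50 and 3.83, -0.22) and Alg6 (12.9 and 10.5, -0.30), were lower like Foxd3. Those of Fgf5 were near or at 0, with Prdm8 at 0.101 and 0.087 and Bmp3 listed at 0.

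By the distance of log2(FPKM + 0.1) over the 2 libraries, the gene most like Otx2 was Iqsec1 (4.52 and 8.79). For Zic2 it was Serpini1 (2.22 and 3.76), for Pou3f1 Evi5l (1.81 and 2.39), for Zic5 Map3k9 (1.53 and 1.87), for Sox3 Grip1 (1.78 and 1.82) and for Foxd3 Lsm6 (22.5 and 18.4). With 2 libraries such a match says only that both values are near.

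Some properties of the libraries as a whole touch these values. The gene targeted by the shRNA, Usp21, was at an FPKM of 26.2 in shCon and 3.49 in shUSP21, a log2 ratio of -2.87, in the direction of the labels. The steps of low FPKM values put the depth at about 30.1 M fragments for shCon and 24.4 M for shUSP21. Across the 11378 genes with a transcript length, longer transcripts had higher log2 ratios (Spearman rho 0.32, across genes, which share both libraries), with a median of -0.16 in the shortest of 5 groups and 0.18 in the longest. The members, at 2065 to 4767 bases, fell in the middle groups, and with this trend subtracted their log2 ratios were 1.02 for Otx2, 0.81 for Zic2, 0.35 for Pou3f1, 0.23 for Zic5, 0.093 for Sox3 and -0.24 for Foxd3.

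**Figure D4:**
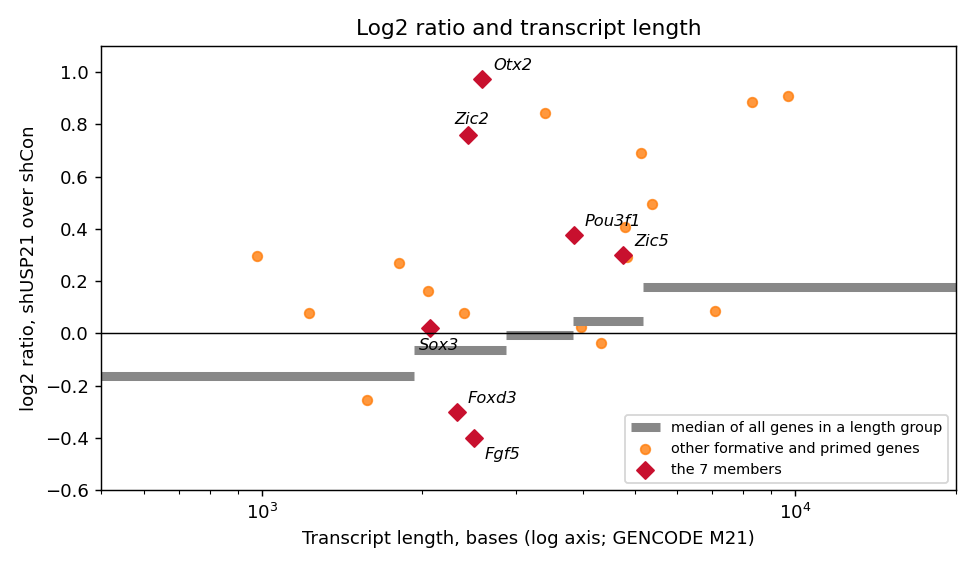
Log2 ratio (shUSP21 over shCon) against transcript length in bases (log axis) for the 7 members (diamonds) and the 16 other formative and primed genes with FPKM of at least 1 (circles), with grey bars at the median of all genes in 5 groups of length. The grey medians go from -0.16 to 0.18, and Otx2 and Zic2 lie at 0.97 and 0.76, above the medians of all 5 groups.

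The summed FPKM was 613617 in shCon and 543206 in shUSP21. Scaling both libraries to the same sum (TPM) shifted the median log2 ratio of all genes to 0.18, the share of genes above 0 from 50.4% to 70.7%, and the calls at 2-fold from 274 higher and 242 lower to 460 higher and 159 lower. Relative to that shift the members were at 0.98 for Otx2, 0.76 for Zic2, 0.38 for Pou3f1, 0.30 for Zic5, 0.013 for Sox3 and -0.30 for Foxd3, and no member changed direction under any of the scalings tried. Since TPM moves all genes by the same factor, subtracting the shift gives back nearly the deposited log2 ratios by construction for genes well above the pseudocount. Fgf5, whose FPKM is at or under the pseudocount, was at -0.40 as deposited and at -0.61 relative to the shift. Without subtracting the shift, Otx2 was at 1.16 and passed 2-fold. The others were then at 0.94 for Zic2, 0.55 for Pou3f1, 0.48 for Zic5, 0.19 for Sox3, -0.12 for Foxd3 and -0.43 for Fgf5.

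**Figure D5:**
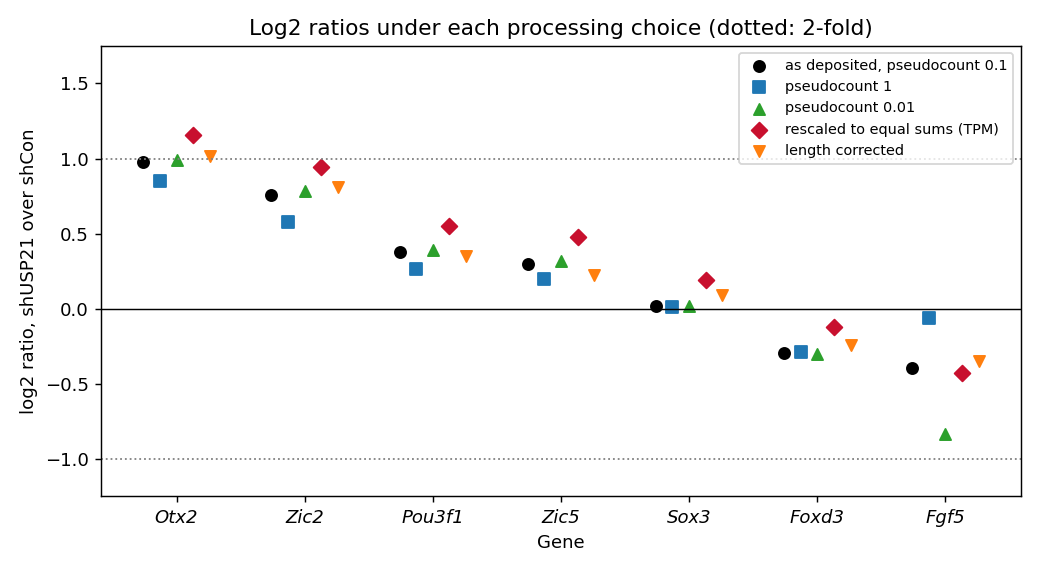
Log2 ratio (shUSP21 over shCon) of each member as deposited with a pseudocount of 0.1, with pseudocounts of 1 and 0.01, after scaling to equal sums (TPM), and after correction for transcript length, with dotted lines at 2-fold. The order of Otx2, Zic2, Pou3f1, Zic5, Sox3 and Foxd3 is the same under each, Otx2 lies close to the upper line throughout (0.85 to 1.16), and Fgf5 runs from -0.83 to -0.065 with the pseudocount.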

How the data were processed

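RNA was sequenced from 2 libraries of E14 mESCs, shCon and shUSP21, 1 per group. Per the file headers the values are FPKM, which the authors deposited once for each gene symbol in a library. The submitters' processing notes name CASAVA 1.8.2, TopHat2 2.0.14, Cufflinks 2.2.1 and the build mm9, with no roles stated. The paper does not describe this sequencing, and the annotation and strand setting are not given in the sources used here. FPKM gives no counts, so fragments and depth were estimated from the value of 1 fragment in low genes, and intervals cover counting error only.

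Log2 ratios used a pseudocount of 0.1. Genes that reached an FPKM of 1 in either library were counted, with a fold of 2, or 1.5, in place of a test, and p-values were not computed. Transcript lengths, coordinates and shared 31-base words came from GENCODE M21 (GRCm38, 1 transcript per gene, the longest coding sequence), since no mm9 genome was used here, and start windows from RefSeq (GRCm38.p6). The words were matched in the reading direction of each transcript only, so the shares given leave out sharing with antisense sequence. The length correction was a lowess of span 0.3, and this correction and the 2-fold calls were tested on simulated data (statsmodels 0.14.6 and scipy 1.17.1 under Python 3.11.15). The estimate of fragments and depth was not tested in that way. The members, gene lists and settings were chosen with earlier results of these data known. The genes named are the members, paralogues with FPKM of at least 1, Usp21, the 3 highest and 3 lowest of the other formative and the naive lists, the most abundant gene of each marker list, and the gene nearest to each member. Other genes named, such as those beside the members or at 0, were added after their values were seen. Some genes are not reported here.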

Additional observations from a re-analysis of the deposited data

How the results depend on the processing

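The alternatives were pseudocounts of 1 and 0.01, TPM (equal sums of FPKM), a median log2 ratio of 0, correction for transcript length, no minimum or a minimum FPKM of 5, and a 1.5-fold threshold. Of 35 log2 ratios of single members under the 5 alternatives that apply to them, 24 moved by less than 0.1, 11 moved by more, and 0 changed sign. The number of members past 2-fold was 0 as reported, 1 (Otx2) under TPM or with length correction, and 2 (Otx2 and Zic2) with the 1.5-fold threshold. Of all 11927 genes, 274 were 2-fold higher and 242 lower as reported, and 460 higher and 159 lower under TPM. With length correction 241 were higher and 187 lower of 11378. At 1.5-fold, 7.77% of all genes were higher and 6.46% lower. The median log2 ratio of the members, 0.34 as reported, became 0.23 with a pseudocount of 1 and 0.52 under TPM. That of the other formative and primed genes went from 0.28 to 0.46 under TPM, and to 0.16 with no minimum (22 genes) and 0.16 with a minimum of 5 (11 genes), both of which change the genes counted. That of the naive genes went from -0.29 to -0.12 under TPM. TPM moves all genes by one factor. With 1 library per group no replicate could be left out, and variation between cultures, the uptake of the shRNA and effects of the shRNA on other transcripts cannot be told apart from the knockdown.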

Other observations

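The 4 FGF receptors, through which Fgf4 and Fgf5 signal, differed among themselves. Fgfr1 was the most abundant, at an FPKM of 19.8 in shCon and 24.7 in shUSP21 (log2 ratio 0.32), and Fgfr4 was at 2.24 and 2.70 (0.25). Fgfr2 was higher with the USP21 shRNA, at 0.456 and 1.70 (1.69), and Fgfr3 lower, at 2.17 and 0.931 (-1.14), which makes these the only receptors past 2-fold. Fgfr2 passed the minimum in shUSP21 alone, so it could only count as higher, and Fgfr3 in shCon alone, so it could only count as lower. Of all genes past the minimum, 2.3% were at least 2-fold higher and 2.03% at least 2-fold lower. Both receptors are low, they were picked out after their values were seen, and no replicate bears on them.

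Among the markers of other cell types, 4 genes were past 2-fold. Those past the minimum were 3 neural progenitor, 2 neural crest, 3 primitive streak, 8 primitive endoderm, 4 trophectoderm and 2 fibroblast genes. Eomes is in both the primitive streak and the trophectoderm list. Of all genes past the minimum, 2.3% were at least 2-fold higher and 2.03% at least 2-fold lower. Gata3 (0.547 and 1.36, log2 ratio 1.18) and Hand1 (0.403 and 1.25, 1.42) of the trophectoderm list were higher, and Thy1 of the fibroblast list (17.3 and 5.29, -1.69) and Sox7 of the primitive endoderm list (4.68 and 1.97, -1.20) were lower. The primitive endoderm list was divided evenly in the deposited values, and its Pdgfra lay the other way, at 2.48 and 4.22 (0.75). Cdx2, a defining factor of the trophectoderm, was at 0.157 and 0.268, under the minimum in both libraries. These genes too were picked out after their values were seen, and Gata3 and Hand1 passed the minimum in shUSP21 alone. Sox2ot, the transcript that overlaps Sox2 on the same strand, was at 0.202 and 0.513 (log2 ratio 1.02), both under the minimum.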
